A study of Homo sapiens with 8 samples.

Results

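The G1 cyclins and CDK inhibitors set how fast a cell leaves G1. D cyclins (CCND1, CCND2, CCND3) activate CDK4 and CDK6, E cyclins (CCNE1, CCNE2) activate CDK2, and both kinases phosphorylate the retinoblastoma protein, which then releases E2F transcription factors to switch on genes of DNA synthesis. The CIP/KIP inhibitors p21 (CDKN1A) and p27 (CDKN1B) bind cyclin and CDK complexes, and the INK4 inhibitors p16 (CDKN2A), p15 (CDKN2B) and p18 (CDKN2C) bind CDK4 and CDK6. In the epidermis, this balance separates dividing basal keratinocytes from cells that leave the cycle to differentiate. The 10 genes were taken by symbol through their Entrez identifiers, 5 cyclins and 5 inhibitors, out of 17131 genes in the table. The rule used no measured value, but the members were chosen with earlier results of these data known.

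RNA was sequenced in 8 libraries of HaCaT cells, an established human keratinocyte line that is labelled wild type, 4 in each of 2 groups. All cells received M5, a cocktail of 5 cytokines (oncostatin M and TNF-α with IL-1α, IL-17A and IL-22) given at 10 ng/mL for 24 h, which brings keratinocytes into a psoriasis-like state, and one group also received OTS514, an inhibitor of the kinase TOPK, at 10 nM from 12 h before M5. The labels disagree on which group that was. By title, OTS514 went to M5_O5, but the treatment field lists the inhibitor under M5 and no treatment under M5_O5. Groups are therefore named by title, and every direction is that of M5_O5 relative to M5. If the entered treatment is right, genes lower in M5_O5 are the ones raised by OTS514. At an adjusted p-value under 0.05 and at least 2-fold, 357 genes were higher and 41 lower in M5_O5. Which label is right was not tested. No library without M5 was analysed here, and whether the 4 libraries of a group came from separate cultures is not stated, so p-values measure the spread between these libraries.

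Library totals ranged from 13708055 to 16922693 estimated reads, and M5 replicate 1 was the smallest. All 10 keratinocyte markers (KRT5, KRT14 and TP63 among them) were present, with a summed level of 19357 to 23191 TPM (reads scaled for transcript length and library total) in M5_O5 and 21895 to 23681 in M5. Of the markers of other cells found in the table, 6 of 7 for fibroblasts, 3 of 3 for melanocytes, 4 of 5 for leukocytes and 2 of 2 for endothelium stayed under 1 TPM in every library. The exceptions were COL1A1 and CD68, and the summed lists lay at 10.3 to 10.8 TPM in M5_O5 against 13.1 to 15.4 in M5 for fibroblasts and at 54.2 to 71.6 against 70.7 to 89.5 for leukocytes. Their part in the results was not tested. In a bulk sample, fewer cells in a state and less RNA per cell cannot be told apart.

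Most cyclins were higher and all tested inhibitors lower in M5_O5. Of the 9 genes with enough reads to be tested, 3 were higher in M5_O5 at an adjusted p-value under 0.05, all of them cyclins (CCND2, CCND3 and CCNE1), where 19.5% of all tested genes were higher. Lower in M5_O5 were 5, namely all 4 tested inhibitors (CDKN1A, CDKN1B, CDKN2A and CDKN2B) and 1 cyclin, CCND1, where 17.6% of all tested genes were lower. None of the 10 genes passed the test with a change of at least 2-fold, which 3.2% of tested genes did. In CPM (reads scaled to the library total with TMM factors, not for length), the libraries of the groups did not overlap for 7 of the 9 genes, against 33.6% of all tested genes.

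**Figure D1:**
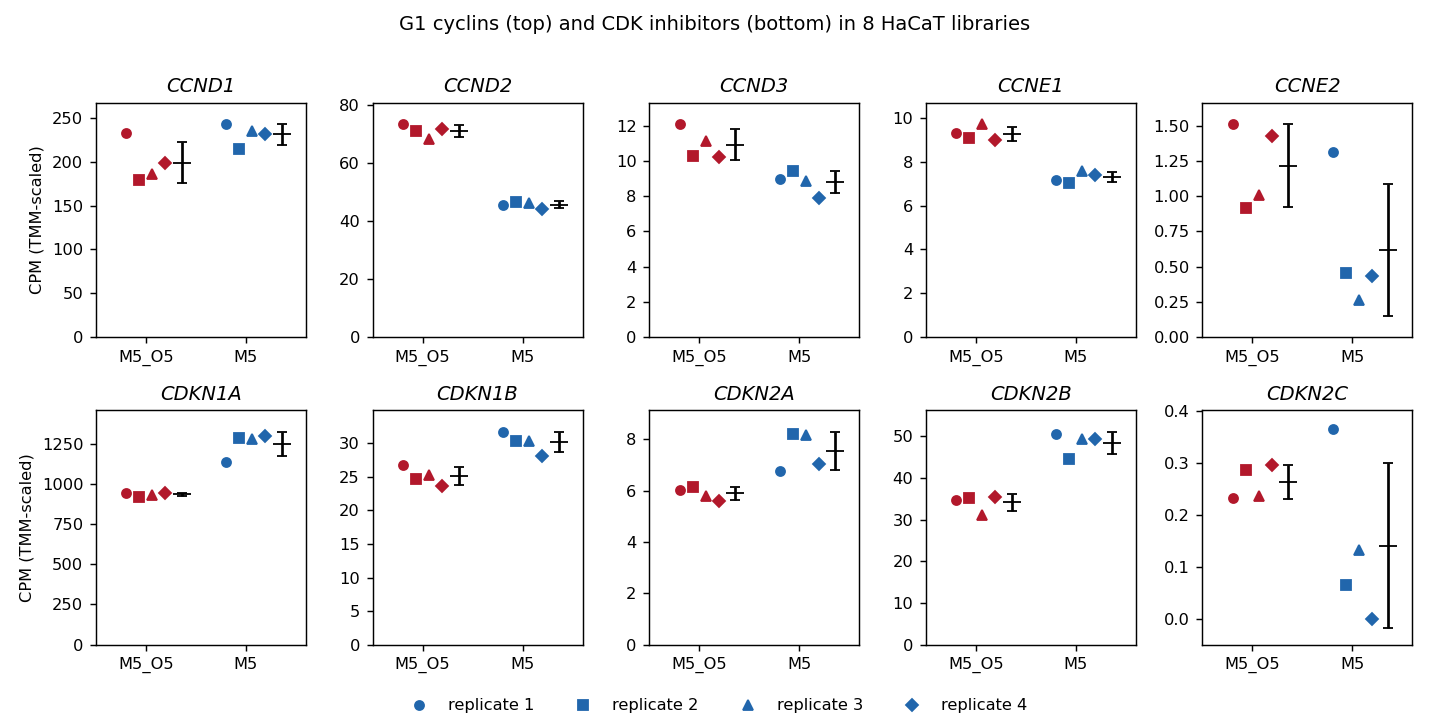
CPM (vertical axis, starting at 0 except for CDKN2C) of each gene in the 4 M5_O5 libraries (red) and the 4 M5 libraries (blue), with marker shapes for replicate numbers and black bars for mean ± SD. CCND2 stands at 68.0 to 73.2 CPM in M5_O5 and 44.1 to 46.6 in M5, while CDKN1A stands at 922 to 945 and 1139 to 1298.

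Among the D cyclins, CCND2 differed most. Its level was 73.2, 71.1, 68.0 and 71.4 CPM in M5_O5 replicates 1 to 4 and 45.3, 46.6, 46.3 and 44.1 CPM in M5 replicates 1 to 4. Every M5_O5 library lay above every M5 library, and the spread within a group was small, 70.9 ± 2.19 (SD, n = 4) against 45.5 ± 1.11 (SD, n = 4). This was a 1.56-fold difference, or 0.64 on the log2 scale (standard error 0.05, adjusted p = 2.13e-06, edgeR).

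CCND3 followed the same direction at a lower level. It had 12.1, 10.3, 11.1 and 10.2 CPM in the M5_O5 libraries and 8.98, 9.40, 8.88 and 7.91 CPM in the M5 libraries. The groups did not overlap, but the gap between M5_O5 replicate 4 and M5 replicate 2 was smaller than the range of either group. The groups differed by 0.32 on the log2 scale (standard error 0.10, adjusted p = 0.0223, edgeR). The difference was 0.30 with DESeq2 (adjusted p = 0.0542) and 0.15 with the trend of fold change on expression level removed (adjusted p = 0.265, edgeR), both short of the threshold, and it also missed the threshold without M5_O5 replicate 1 (0.26, adjusted p = 0.058, edgeR) or M5 replicate 4 (0.26, adjusted p = 0.0833).

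CCND1, the D cyclin with the highest level, went the other way by a small amount. It had 233, 180, 186 and 199 CPM in M5_O5 and 243, 215, 236 and 232 in M5. The groups overlapped, because M5_O5 replicate 1 lay among the M5 libraries. The difference of -0.22 on the log2 scale (standard error 0.08, adjusted p = 0.0354, edgeR) missed the threshold when M5_O5 replicate 2, 3 or 4 or M5 replicate 3 or 4 was left out, with adjusted p-values up to 0.116 (edgeR). Scaling by library size alone gave -0.10 (adjusted p = 0.357, edgeR).

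The makeup of D cyclin mRNA differed between the groups, while its summed amount did not differ beyond the spread. CCND2 made up 15.1%, 18.0%, 16.8% and 16.9% of the summed D cyclin TPM in the M5_O5 libraries and 9.80%, 11.1%, 10.3% and 10.02% in the M5 libraries. CCND1 made up 73.5% ± 1.59 (SD, n = 4) against 82.2% ± 1.16 (SD, n = 4), and CCND3 9.83% ± 0.74 against 7.5% ± 0.64. For each of the 3 shares the groups did not overlap (two-sided exact permutation test, p = 0.0286 before and after adjustment over the 3 shares, the smallest that 4 against 4 libraries allow). The shares sum to 100%, so the 3 tests are not independent. The summed TPM itself was 113 ± 15.6 (SD, n = 4) in M5_O5 and 108 ± 11.1 (SD, n = 4) in M5, a difference within the spread (exact permutation test, p = 0.6).

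**Figure D2:**
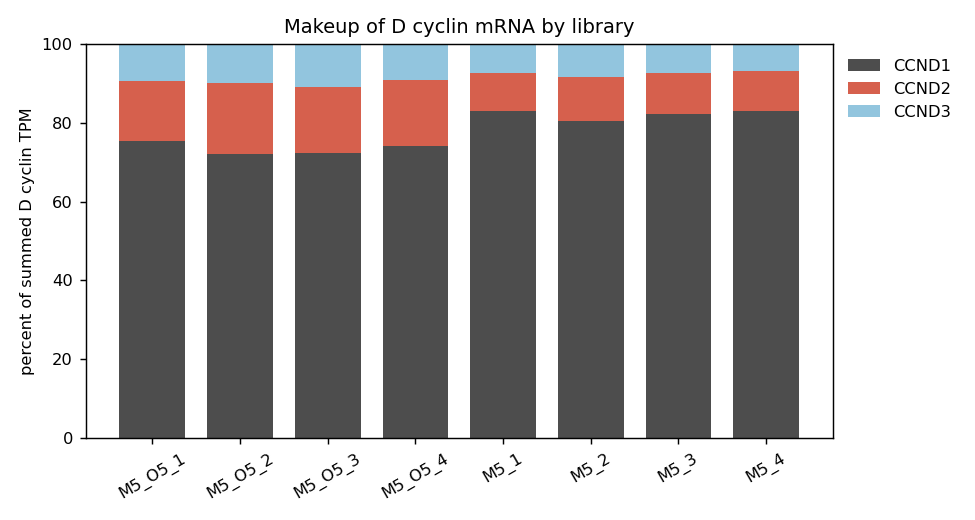
Percent of summed D cyclin TPM (vertical axis) held by CCND1, CCND2 and CCND3 in each of the 8 libraries. The CCND2 segment spans 15.1% to 18.0% in the M5_O5 libraries and 9.80% to 11.1% in the M5 libraries.

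The E cyclins were both more abundant on average in M5_O5, and only CCNE1 passed the test. CCNE1 had 9.30, 9.08, 9.72 and 8.97 CPM in M5_O5 and 7.15, 7.05, 7.57 and 7.41 CPM in M5. The groups stood apart without overlap, 0.34 apart on the log2 scale (standard error 0.09, adjusted p = 0.0105, edgeR). With the expression level trend removed the value was 0.16 (adjusted p = 0.214, edgeR).

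CCNE2 was expressed at about 1 CPM. It had 26, 16, 17 and 24 reads in the M5_O5 libraries and 18, 7, 4 and 7 in the M5 libraries, which is 1.51, 0.92, 1.01 and 1.43 CPM against 1.31, 0.46, 0.26 and 0.44. M5 replicate 1 lay inside the M5_O5 range, and the other 3 M5 libraries lay below it. The log2 fold change was 1.01, with a 95% interval from 0.19 to 1.82 and an adjusted p of 0.0505 (edgeR), just outside the threshold. Without M5 replicate 1 it was 1.63 (adjusted p = 0.00129, edgeR). CCNE2 entered the test through its level in M5_O5, since 3 of its M5 libraries held under 10 reads.

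CCNE1 starts in a stretch rich in GC boxes, the binding sequence of Sp family factors. Its 250 bases before the start site (RefSeq, GRCh38.p14, chr19:29811741-29811990, plus strand) are shown with each GC box, GGGCGG or its reverse complement, in capitals, because no other member promoter in the table held as many.

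CCNE1: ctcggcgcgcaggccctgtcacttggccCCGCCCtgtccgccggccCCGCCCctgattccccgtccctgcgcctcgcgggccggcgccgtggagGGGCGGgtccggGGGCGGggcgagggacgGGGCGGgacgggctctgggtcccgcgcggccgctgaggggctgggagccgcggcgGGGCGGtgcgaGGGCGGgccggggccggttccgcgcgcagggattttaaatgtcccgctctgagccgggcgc

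The letters GGGCGG were found 7 times here on both strands together. Of 12 promoters listed for 7 of the 10 genes (300 bases each, from 250 before to 50 after the start), 9 held a GC box, against 45.0% of all 35116 promoters. None of the 12 held the E2F letters TTTCCCGC, TTTCGCGC, TTTGCCGC or TTTGGCGC, which 3.32% of all promoters did. CHR (TTTGAA), CRE (TGACGTCA) and AP-1 (TGACTCA or TGAGTCA) letters were also in none of the 12, against 15.2%, 1.85% and 4.95% of all promoters, and the E-box CACGTG was in 2 of the 12, both of CDKN2C, against 7.26%. Several promoters belong to the same gene, so the 12 are not independent. Their GC content ran from 46.3% (CDKN2C) to 81.0% (CCNE1), where the median of all promoters was 58.7%. Only promoters of CDKN2C lay below that median. The part of GC content in these counts was not tested.

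Among the inhibitors, CDKN1A had by far the highest level of the 10 genes, 847 ± 40.5 TPM (SD, n = 4) in M5_O5 and 1036 ± 23.8 (SD, n = 4) in M5. It encodes p21, which stops cyclin and CDK complexes. In CPM it had 945, 922, 933 and 945 in the M5_O5 libraries and 1139, 1287, 1282 and 1298 in the M5 libraries. All M5 libraries lay above the M5_O5 range, with M5 replicate 1 the closest. The difference was -0.42 on the log2 scale (standard error 0.06, adjusted p = 9.39e-05, edgeR), so the M5_O5 level was 0.748 times that of M5, and it was called under every alternative run, at -0.22 with the expression level trend removed.

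CDKN1A is shown with its GC boxes in capitals, since its promoter belongs to the inhibitor with the highest level (RefSeq, GRCh38.p14, chr6:36678464-36678713, plus strand, the 250 bases before the start).

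CDKN1A: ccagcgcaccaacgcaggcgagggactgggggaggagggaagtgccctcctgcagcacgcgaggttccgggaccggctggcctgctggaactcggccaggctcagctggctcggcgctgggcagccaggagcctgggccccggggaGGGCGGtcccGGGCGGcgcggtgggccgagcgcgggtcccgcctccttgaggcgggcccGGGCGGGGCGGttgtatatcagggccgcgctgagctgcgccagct

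CDKN1B, the gene of p27, differed less. It had 26.8, 24.7, 25.3 and 23.7 CPM in M5_O5 and 31.8, 30.4, 30.4 and 28.2 in M5, and the groups did not overlap. The estimate was -0.26 on the log2 scale (standard error 0.07, adjusted p = 0.00793, edgeR). In TPM the groups overlapped, at 18.5 to 21.8 against 19.9 to 25.0 (two-sided exact permutation test, p = 0.171), and scaling by library size alone gave -0.15 (adjusted p = 0.132, edgeR). CDKN1C, the gene of p57 and the remaining CIP/KIP member, had 0 to 3 reads per library and was not tested.

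CDKN2B encodes p15, the INK4 inhibitor that TGF-β signaling induces. Its level was 34.8, 35.2, 31.1 and 35.4 CPM in the M5_O5 libraries and 50.5, 44.5, 49.4 and 49.3 CPM in the M5 libraries. The groups did not overlap and differed by -0.50 on the log2 scale (standard error 0.07, adjusted p = 6.03e-05, edgeR), or 0.705 times the M5 level. The call held under every alternative run.

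CDKN2A had 6.05, 6.15, 5.81 and 5.59 CPM in M5_O5 and 6.79, 8.23, 8.16 and 7.04 in M5. The groups did not overlap, although M5 replicates 1 and 4 lay close to the M5_O5 libraries, and the estimate was -0.36 on the log2 scale (standard error 0.11, adjusted p = 0.0209, edgeR). With the expression level trend removed it was -0.57 (adjusted p = 0.00162, edgeR), larger in size than that of CDKN2B (-0.50). It missed the threshold when scaled by library size alone (-0.24, adjusted p = 0.0946, edgeR) or without M5_O5 replicate 4, M5 replicate 2 or M5 replicate 3 (adjusted p up to 0.0675, edgeR). CDKN2A and CDKN2B share closely similar coding sequence, so the counting step may have assigned reads of one to the other. The antisense gene CDKN2B-AS1 has no row among the protein-coding transcripts of the table, and strand use in counting is not stated, so its reads cannot be told apart from those of CDKN2B.

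CDKN2A makes 2 unrelated inhibitors from transcripts with different first exons, p16-INK4A, which blocks CDK4 and CDK6, and p14-ARF, which binds MDM2. The ARF transcript carried most of the reads. It was assigned 85.9, 68.1, 70.9 and 63.5 estimated reads in the M5_O5 libraries and 61.3, 103, 105 and 74.2 in the M5 libraries. These are 71.5% ± 8.19 (SD, n = 4) and 74.5% ± 10.1 (SD, n = 4) of CDKN2A reads, a difference within the spread (two-sided exact permutation test, p = 0.686).

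The INK4A transcript received far fewer. Its estimated reads were 3.46, 8.15, 9.34 and 2.45 in M5_O5 and 2.04, 1.79, 1.77 and 0 in M5. As a share of CDKN2A reads this was 3.33%, 7.62%, 9.53% and 2.61% against 2.19%, 1.42%, 1.43% and 0%, with no overlap but a small gap between M5_O5 replicate 4 and M5 replicate 1. The mean share was 5.77% ± 3.34 (SD, n = 4) against 1.26% ± 0.92 (SD, n = 4), at the lowest p that an exact two-sided permutation test allows here, 0.0286. The shares rest on under 10 estimated reads per library that a counting program divided among 7 overlapping transcripts, and without any one of the M5 libraries the exact p was 0.0857 to 0.114. The 5 other transcripts held 14.6 to 30.7 estimated reads in M5_O5 and 17.2 to 38.8 in M5. Where these 5 start was not examined, so the INK4A shares describe that transcript alone and not the use of the INK4A start.

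The 250 bases before each of the 2 start sites listed for CDKN2A (RefSeq, GRCh38.p14, minus strand) are shown because each feeds a different inhibitor. The start sites lie 20467 bases apart, the ARF start at chr9:21995325-21995574 and the INK4A start at chr9:21974858-21975107, with GC boxes in capitals.

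CDKN2A, ARF start: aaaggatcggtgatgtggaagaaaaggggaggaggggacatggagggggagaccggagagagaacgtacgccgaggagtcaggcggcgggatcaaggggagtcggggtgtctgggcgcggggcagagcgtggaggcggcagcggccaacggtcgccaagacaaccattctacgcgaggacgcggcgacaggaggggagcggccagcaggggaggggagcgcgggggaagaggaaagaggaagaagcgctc

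CDKN2A, INK4A start: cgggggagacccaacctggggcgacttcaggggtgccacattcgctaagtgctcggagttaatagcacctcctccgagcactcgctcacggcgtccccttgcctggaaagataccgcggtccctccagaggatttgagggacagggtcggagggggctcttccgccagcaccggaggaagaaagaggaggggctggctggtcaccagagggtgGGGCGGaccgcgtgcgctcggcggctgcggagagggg

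The ARF stretch held no GC box, and the INK4A stretch held 1, at 37 bases before the start. Both 300-base windows were above the median GC content of all promoters, 58.7%, at 63.3% for ARF and 69.0% for INK4A.

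**Figure D3:**
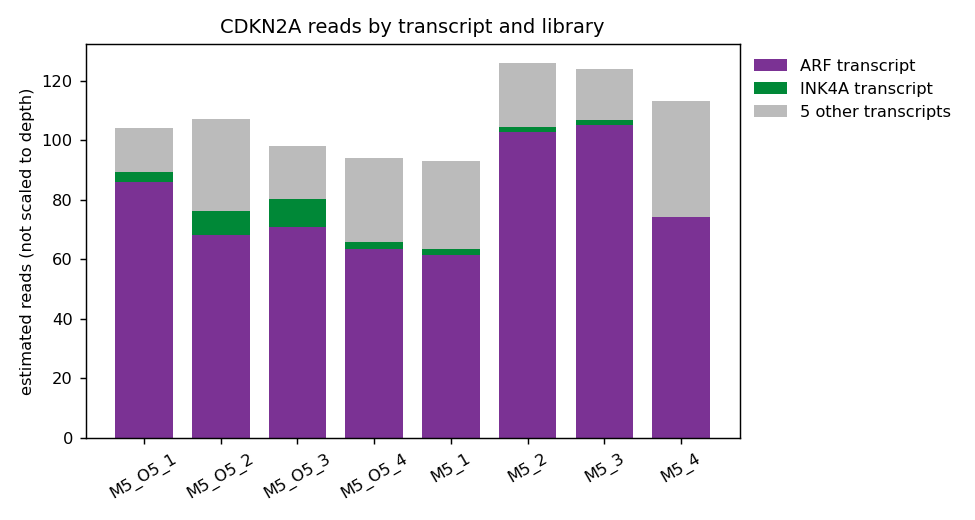
Estimated CDKN2A reads per library (vertical axis, not scaled to depth), split into the ARF transcript, the INK4A transcript and the 5 other transcripts. The ARF transcript spans 61.3 to 105 reads, and the INK4A transcript 0 to 9.34.

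CDKN2C, the gene of p18, was near the detection limit and was not tested. It had 4, 5, 4 and 5 reads in the M5_O5 libraries and 5, 1, 2 and 0 in the M5 libraries. The groups overlapped through M5 replicate 1, and the count of 0 in M5 replicate 4 allows up to 0.187 CPM (3 counts, counting error only), so a difference was not detectable at this depth (two-sided exact permutation test on CPM, p = 0.171). CDKN2D, the gene of p19 and the INK4 member outside the 10 genes, had 8.02, 8.67, 7.23 and 8.08 CPM against 7.30, 11.6, 10.8 and 11.8. M5 replicate 1 lay among the M5_O5 libraries, and the log2 fold change of -0.38 (adjusted p = 0.0411, edgeR) was lost without any one of 7 of the 8 libraries (adjusted p up to 0.133, edgeR). Leaving out M5 replicate 1 kept the call (-0.51, adjusted p = 0.000746, edgeR).

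**Figure D4:**
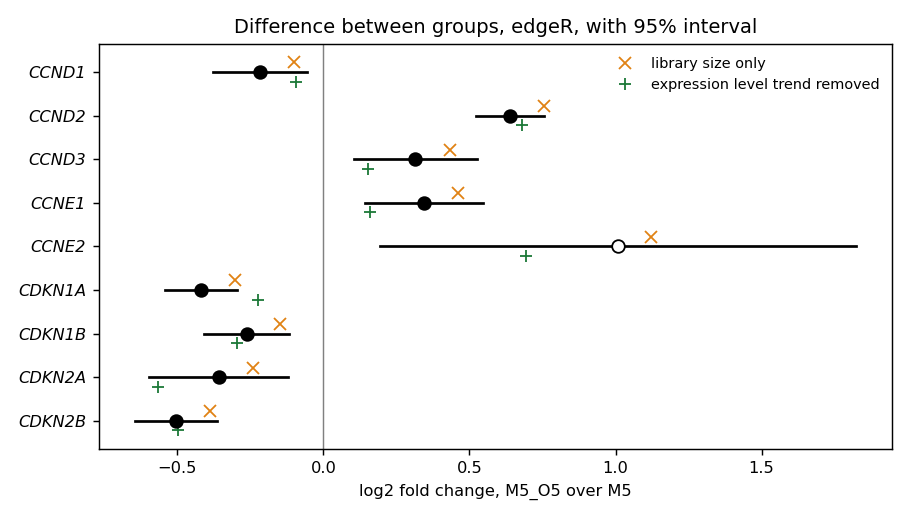
Log2 fold change of M5_O5 over M5 (horizontal axis) for the 9 tested genes, with 95% intervals from edgeR, filled where the adjusted p-value was under 0.05. Crosses give the value with library size as the only scaling and plus signs with the expression level trend removed, and no gene changes sign, from CDKN2B at -0.50 to CCNE2 at 1.01.

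Per length, the order of levels was led by CDKN1A and CCND1 in both groups, 847 and 83.4 TPM in M5_O5 and 1036 and 88.9 in M5, and closed by CCNE2 and CDKN2C, 0.91 and 0.31 against 0.41 and 0.13. The order between them differed in 1 place, where CCND2 ranked 4 in M5_O5 (18.8 ± 1.27 TPM, SD, n = 4) and 6 in M5 (11.1 ± 0.69, SD, n = 4), below CDKN2B (20.6 ± 2.34) and CDKN2A (14.1 ± 1.36). In M5_O5 the neighbours CDKN1B and CCND2, CDKN2A and CCND3, and CCND3 and CCNE1 overlapped in range. In M5 the same held for CDKN1B and CDKN2B, CCND3 and CCNE1, and CCNE2 and CDKN2C. The ratio of CDKN1A to summed D cyclin TPM was 6.60, 8.06, 7.88 and 7.62 in the M5_O5 libraries and 8.43, 10.4, 9.67 and 10.1 in the M5 libraries, without overlap (two-sided exact permutation test, p = 0.0286).

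The kinases and pocket proteins that these genes act on went both ways. Of 28 listed partners of the G1 to S transition, 27 were tested, 7 were higher and 5 lower in M5_O5, shares near the 19.5% and 17.6% of all tested genes, and the median log2 fold change was 0.12, against 0.01 over all 12434 genes tested. The largest rises were E2F1 (1.62, adjusted p = 0.000978, edgeR), CCNA2, the S phase cyclin (1.41, adjusted p = 0.00106), and CDK4, the kinase of the D cyclins (0.51, adjusted p = 5.8e-05). E2F1, at 0.58 to 0.87 CPM in M5 and 1.09 to 2.73 in M5_O5, entered the test through its level in M5_O5. CDK4 had 46.7, 46.0, 51.1 and 44.7 CPM against 34.8, 34.7, 31.5 and 31.6, with no overlap between groups. The largest falls were CDKN2D, then FBXW7, which marks cyclin E for degradation (-0.36, adjusted p = 0.00705, edgeR), and E2F4 (-0.23, adjusted p = 0.0488). CDK2, the kinase of the E cyclins, was also lower (-0.23, adjusted p = 0.0209, edgeR), while CDK6 (0.18, adjusted p = 0.0916) and RB1 (-0.09, adjusted p = 0.387, and 0.02 when scaled by library size alone) did not pass. Scaled by library size alone, 11 partners were higher and none lower. On log2(TPM + 1), 8 were higher and none lower, with FBXW7 at -0.07 (adjusted p = 0.67, limma).

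Genes that E2F drives at S phase entry were mostly higher in M5_O5. Of 20 listed and tested, 16 were higher and 1, MCM7, was lower (-0.19, adjusted p = 0.0284, edgeR), with a median of 0.57. The shares over all tested genes were 19.5% higher and 17.6% lower. RRM2, a subunit of ribonucleotide reductase, differed most, at 10.3, 8.50, 9.96 and 11.1 CPM against 3.72, 1.76, 1.78 and 1.43 (log2 fold change 2.22, adjusted p = 4.76e-06, edgeR). M5 replicate 1 was the highest of its group and still well below the M5_O5 libraries. CDC45 (1.56) and MCM6 (1.53) of the replicative helicase followed. Under library size scaling 18 were higher and none lower. All 10 proliferation markers were higher, with a median of 1.07, led by PLK1 (1.42), CDK1 (1.37) and MKI67 (1.17), and their mean log2(CPM + 1) in M5 replicate 1 was 3.72, with 2.93 to 3.001 in the rest of its group and 4.13 to 4.23 in M5_O5. PBK, the gene of TOPK, was also higher (1.32, adjusted p = 0.00738, edgeR, and 1.98 without M5 replicate 1), at 2.63 CPM in M5 replicate 1, 0.59 to 0.99 in the rest of its group and 2.25 to 3.60 in M5_O5. CDC45, at 0.46 to 1.11 CPM in M5, and PBK, at 9 to 36 reads in M5, entered the test through their levels in M5_O5. A minimum of 10 counts in every library removed both, and also E2F1 of the partner list.

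Among 31 listed regulators of D cyclins and CDK inhibitors, 29 were tested, 3 were higher and 11 lower in M5_O5, with a median of -0.16. Over all tested genes, 19.5% were higher and 17.6% lower. The higher genes included ID3 (0.56, adjusted p = 0.0119, edgeR) and MYC, which represses CDKN1A and CDKN2B in many cells (0.47, adjusted p = 0.000156). MYC had 124, 112, 122 and 105 CPM against 76.4, 92.3, 81.5 and 83.3, without overlap. ID3 did overlap, since M5 replicate 1 had 60.2 CPM among M5_O5 values of 51.9 to 69.2. The lower genes were led by TBX3, a T-box repressor of CDKN2A (-0.50, adjusted p = 3.94e-05, edgeR), TCF7L2, a partner of β-catenin (-0.49, adjusted p = 0.000168), and JUN of AP-1 (-0.40, adjusted p = 0.00095). SMAD2, SMAD3 and SMAD4, which carry TGF-β signals, had differences of -0.16, -0.33 and -0.23, of which only that of SMAD3 passed when scaled by library size alone (adjusted p = 0.53, 0.00232 and 0.181, edgeR). Scaled by library size alone, 5 regulators were higher and 6 lower.

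**Figure D5:**
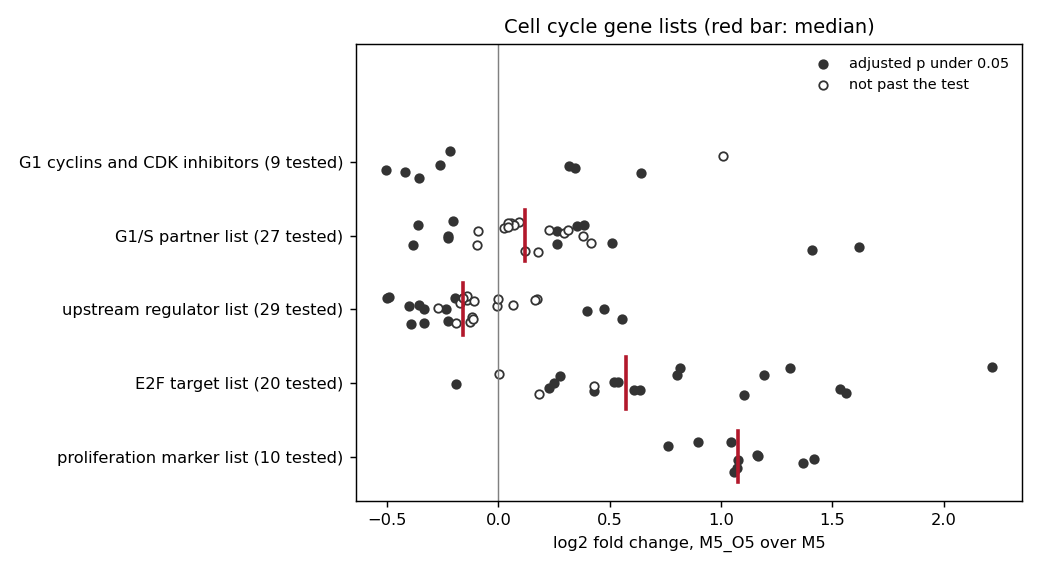
Log2 fold change of M5_O5 over M5 (horizontal axis) for the tested genes of each list, filled where the adjusted p-value was under 0.05, with a red bar at the median of each list other than the 9 cyclins and inhibitors. Medians lie at -0.16 for the regulators, 0.57 for E2F targets and 1.07 for proliferation markers.

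The genes whose level tracked each member most closely over the 8 libraries were found by Pearson's r of log2 CPM among genes whose mean reached 1 CPM. CCND2 was closest to MNAT1, an assembly factor of the CDK-activating kinase (r = 0.995), and FECH (0.995), and CCNE1 to EEF1B2 (0.992) and ETV5 (0.991). CCND3 was closest to MRPS7 (0.983) and CSRP2 (0.979), CCND1 to GLTP (0.984) and EFNB2 (0.984), and CCNE2 to HYCC1 (0.989) and CD274 (0.986). For the inhibitors these were VPS37B (0.997) and TBX3 (0.996) for CDKN1A, ZNF624 (0.980) and GPKOW (0.967) for CDKN1B, ANXA8 (0.995) and NSFL1C (0.981) for CDKN2A, and KDM7A (0.997) and PGM3 (0.996) for CDKN2B. The points share the split into 2 groups, and 959 of 11967 genes had an r over 0.9 with CDKN1A, so these values describe the libraries only.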

How the data were processed

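RNA-seq data of 8 HaCaT libraries were analysed. Per the labels and methods, the authors filtered reads, mapped them with HISAT2 2.1.0 and deposited an estimated count, TPM and FPKM per RefSeq transcript. The methods name StringTie for counting. The submitters' processing notes also name Bowtie2 2.2.5, RSEM 1.2.8 and the mouse build mm10, although the rows are human transcripts. The counting program and the build are therefore unsettled, and coordinates are given for RefSeq promoters alone. The deposited FPKM values were not analysed, and deposited TPM values served for levels between genes and as an alternative. Estimated counts (86639 transcripts, 4181 of them further placements) were summed per Entrez gene, rounded, filtered with edgeR's filterByExpr (12434 of 17131 genes tested), TMM-scaled and compared with the edgeR 4.0.16 quasi-likelihood test (R 4.3.3) and Benjamini-Hochberg adjustment over all genes tested. Symbols came from RefSeq GRCh38.p14 (17072 matched). Alternatives used DESeq2 1.42.0, limma 3.58.1, other scalings and filters, a replicate block and each library left out. The fit was tested on simulated data. Replicates differed by more than counting noise, with a mean chi-square per gene from 2.00 to 15.7.

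The members and gene lists were chosen with earlier results of these data known. Named were all 10 members, CDKN1C, CDKN2D and PBK, up to 3 genes past the test with the largest change in each direction per list, and the 2 genes most correlated with each member. CDK2, CDK6, RB1, SMAD2, SMAD3 and SMAD4 were named after their values were seen. One gene of a list and 1 further list are not reported here. CCND1 and CCND2 had no promoter in the table, and none is shown for CCNE2. Intervals and floors cover counting error or the spread between libraries only.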

Additional observations from a re-analysis of the deposited data

Results flagged for a closer look

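In 42 groups of 4 values, each was checked for a library that stands far from the rest, and 3 did, where chance gives about 2.1. M5 replicate 1 gave 2 of them. Its CDKN1A level was 1139 CPM, below the 1282 to 1298 of the rest of its group and toward the M5_O5 libraries. Its mean log2(CPM + 1) of the proliferation markers was 3.72, above 2.93 to 3.001, also toward M5_O5. This library had the smallest total, and the part of depth in these values was not tested. Without it, the log2 fold change of CDKN1A was -0.46 and that of CCNE2 1.63.

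M5_O5 replicate 3 had 31.1 CPM of CDKN2B, below the 34.8 to 35.4 of the rest of its group and away from the M5 libraries. No cause was tested for it.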

How the results depend on the processing

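No tested member changed sign under the other settings it could be fitted in (10, and 9 for CCNE2, which the minimum of 10 counts removed) or with any of the 8 libraries left out, while several listed genes near 0 that did not pass the test, RB1 among them, did. CCND2, CDKN1A and CDKN2B passed in all of them. The number of members past the test was 8, and 5 with limma on log2(TPM + 1) and 5 with the expression level trend removed, an alternative chosen after seeing the data. With library size as the only scaling, where the median of all genes was 0.13 in place of 0.01, 4 members were higher and 2 lower, with 3858 genes higher and 1008 lower in all. CCND1 did not pass with that scaling (-0.10), on log2(TPM + 1) or log2(TPM + 0.1) (both -0.10), or with the trend removed (-0.095). CCND3 did not pass with DESeq2 (0.30) or with the trend removed (0.15), nor CCNE1 with the trend removed (0.16). CCNE2 passed with library size scaling (1.12), no filter on low counts (1.004) and log2(TPM + 0.1) (1.17). CDKN1B and CDKN2A did not pass with library size scaling (-0.15 and -0.24), log2(TPM + 1) (-0.13 and -0.21) or log2(TPM + 0.1) (-0.14 and -0.22). The upstream regulators past the test numbered 14, and 9 on each TPM scale. With 1 library left out, members past the test ranged from 6 to 9, G1/S partners from 7 to 17 (7 without M5 replicate 3 or 4, 12 with all), E2F targets from 13 to 18, regulators from 12 to 19, and proliferation markers stayed at 10. The log2 fold changes ranged from -0.30 to -0.17 for CCND1, 0.62 to 0.66 for CCND2, 0.26 to 0.35 for CCND3, 0.32 to 0.36 for CCNE1, 0.76 to 1.63 for CCNE2, -0.46 to -0.40 for CDKN1A, -0.30 to -0.24 for CDKN1B, -0.40 to -0.32 for CDKN2A and -0.54 to -0.46 for CDKN2B. The cause of these shifts was not tested.

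Same-numbered libraries correlated by 0.21, 0.10, -0.004 and 0.01 in their deviations from the group means, so the number was not taken as a pairing, and not every library correlated best with its own number. With the replicate block, genes past the test rose from 4612 to 5255 and CCNE2 passed (1.02, adjusted p = 0.0192, edgeR), with no other member's call changed. Paired by number, the INK4A share differed by 4.51 percentage points (exact sign-flip permutation test, p = 0.125, the smallest 4 pairs allow). Without pairing, the difference in this share was 3.26 to 5.56 points with 1 library left out. In TPM, with all libraries, it was 5.50 points. Depth limits CCNE2, CDKN2C and the INK4A transcript, which had at most 26, 5 and 9.34 reads in a library.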

Other observations

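Transcript makeup beyond CDKN2A was compared for 5 genes with several transcripts and at least 10 reads in every library, as the percent of a gene's estimated reads held by its leading transcript. CDKN1A reads lay almost wholly on one of its 9 transcripts, at 93.6% ± 0.44 (SD, n = 4) in M5_O5 and 92.9% ± 0.32 (SD, n = 4) in M5 (two-sided exact permutation test, p = 0.0571, adjusted over the 5 genes 0.286). For CDKN2B the share was 91.9% ± 1.89 against 94.0% ± 2.72, and for CDKN2D 79.8% ± 5.65 against 77.4% ± 6.53. CCND3 (58.6% ± 8.53 against 60.6% ± 8.47) and CCNE1 (66.2% ± 11.4 against 62.2% ± 21.9) were divided over more transcripts and varied more between libraries, with CCNE1 at 32.9% in M5 replicate 4 and 83.8% in M5 replicate 3. None of the 5 differed between groups beyond this spread (exact permutation test, adjusted p from 0.286 to 0.771).

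The summed TPM of the 4 INK4 genes CDKN2A, CDKN2B, CDKN2C and CDKN2D was 45.9, 43.3, 39.7 and 43.4 in the M5_O5 libraries and 50.7, 51.9, 54.1 and 52.95 in the M5 libraries. The groups did not overlap (two-sided exact permutation test, p = 0.0286). Taken singly in TPM, only CDKN2B stood apart. CDKN2A, CDKN2C and CDKN2D overlapped between groups (exact permutation test, p = 0.0857, 0.114 and 0.143), and the mean of CDKN2C was the higher one in M5_O5.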
